A study of Mus musculus with 2 samples.

Results

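Splicing regulators are RNA-binding proteins that decide which exons of a pre-mRNA are joined, and 58 genes of this kind were examined among 21474 protein-coding genes (43346 gene rows in all). The 58 were every protein-coding gene whose symbol begins with Hnrnp or is Srsf followed by a number, together with Tra2a, Tra2b, Ptbp1 to Ptbp3, Esrp1, Esrp2, Rbfox1 to Rbfox3, Mbnl1 to Mbnl3, Celf1 to Celf6, Qk, Rbm5, Rbm10, Nova1, Nova2 and Khdrbs1 to Khdrbs3. They were chosen by name, not by level. Total RNA-seq libraries were made from whole mouse lung at embryonic day 16.5, strain B6NCrl, from healthy male and female embryos pooled, with no treatment, transgene or mutation named. The 2 libraries were biological replicates of this single group. Replicate 2 came from 41 embryos and the number behind replicate 1 is not given in the sources used here. Expected counts summed to 38852470 for replicate 1 and to 27145411 for replicate 2. With 1 group there was no comparison of conditions, so levels and ratios are described in each pool without a test, and each mean is given ± SD over n = 2.

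SR proteins bind exonic sequences and usually favour inclusion of an exon, whereas many hnRNPs and PTBP proteins usually oppose it. ESRP proteins are restricted to epithelia and set epithelial patterns of splicing, MBNL, CELF and RBFOX proteins govern switches during the development of muscle, heart and brain, and NOVA proteins act mainly in neurons. Many of these genes also regulate their own output: their pre-mRNAs can be spliced to include a "poison" exon that carries a premature stop codon, or to keep an intron. A transcript with a premature stop is a substrate of nonsense-mediated decay (NMD), the pathway that degrades mRNAs whose stop lies well upstream of the last exon junction, and transcripts with a retained intron often stay in the nucleus. Both are annotation classes, called noncoding here for short, and a transcript in them can still hold much of the gene's reading frame.

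The annotated premature stops are printed here for 5 transcripts because they carry most of the NMD-class RNA described for their genes. Each line gives the last 30 nt of the reading frame, 5′ to 3′ on the coding strand, as read from the GENCODE M21 transcript on mm10, with the stop codon in capitals.
Srsf3-201: accatcatgtctcttctcaccaccctcTGA
Tra2b-206: aatgagtatttgaagctcaggaataagTGA
Srsf6-201: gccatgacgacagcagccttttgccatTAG
Srsf11-206: gctgaagttcttttccctggttcagccTGA
Srsf2-204: ccagaagaagagggagcagtttcttccTAA
The first 3 stops lie in cassette exons that the gene's leading coding transcript skips. The Srsf3 stop is at chr17:29039485-29039487 on the plus strand, in an exon of 456 nt, and the Tra2b stop is at chr16:22259181-22259183 on the minus strand, in an exon of 276 nt. The Srsf6 stop is at chr2:162932964-162932966 on the plus strand, in an exon of 268 nt. The Srsf11 stop, at chr3:158024209-158024211 on the minus strand, also lies in an exon of 109 nt that the coding transcript lacks. Srsf2 differs in kind: its stop at chr11:116852028-116852030 on the minus strand is the ordinary stop of the coding transcript, and introns spliced out of the 3′ untranslated region put a junction 113 nt after it.

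Over all members, 38 NMD transcripts had an annotated stop, and all 38 stops lay more than 50 nt before the last junction. That position is part of how the annotation assigns the NMD class, so it is not a result of these libraries. The stop was in an exon absent from the coding transcript in 10 of the 38 transcripts, and in 7 of these the exon fell between exons of that transcript. It was in an exon with a different end in 6, in a shared exon read in another frame or from another start in 15, and at the gene's own stop in 7. The codon was TGA in 17, TAA in 12 and TAG in 9. Not every NMD transcript lacks the coding sequence: Khdrbs1-202 and Srsf2-202 keep the whole reference frame, of 1329 and 663 nt. Qk-202 has a frame of 957 nt, against 975 nt in the coding Qk-201, but skips a coding exon of 41 nt before its stop. The models of Srsf3-201, Tra2b-206 and Qk-202 differ in length between the M4 annotation used for the deposited tables and M21, so their stops and frames describe the M21 models.

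Retained intron transcripts were the other class. The splice sites of the introns kept in the leading retained intron transcripts of 3 genes are printed because those transcripts hold a large share of each gene's RNA. The capitals mark the first and the last bases of the intron, each donor line holds 3 exonic bases followed by the intron, and each acceptor line ends with 3 exonic bases.
Srsf5-212 donor: cagGTttgt
Srsf5-212 acceptor: cataattgtcttgtgttaAGgat
Hnrnpk-217 donor: atgGTaagt
Hnrnpk-217 acceptor: ctgctcattatttaaatcAGact
Hnrnpl-210 donor: aaaGTgagt
Hnrnpl-210 acceptor: ctgtctcctgtttgattcAGgcg
The Srsf5 intron is the fifth of 7, spans 1229 nt at chr12:80947866-80949094 on the plus strand and separates coding exons. The Hnrnpk intron, of 78 nt at chr13:58393775-58393852 on the minus strand, is 1 of 15, and the Hnrnpl intron, of 118 nt at chr7:28821274-28821391 on the plus strand, is 1 of 12. Of the 97 retained intron transcripts of members, 36 spanned a whole intron of a coding transcript, 38 different introns in all; the abundant Srsf3-205 and Mbnl1-225 are not among them. All 46 such retentions had GT at the first and AG at the last bases of the intron.

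**Figure D1:**
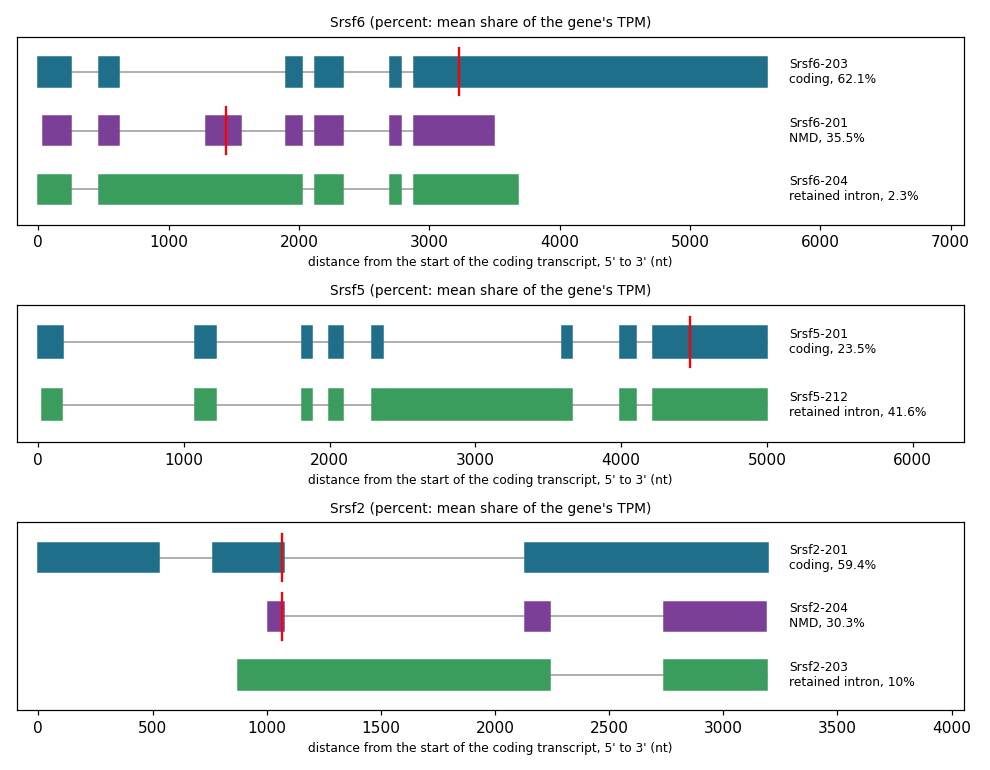
Exons (boxes) and introns (lines) of selected Srsf6, Srsf5 and Srsf2 transcripts, with the distance in nt from the start of the coding transcript on the horizontal axis; blue marks coding, purple NMD and green retained intron models, and a red bar the stop codon. The extra exon of Srsf6-201 sits between 2 exons of the coding model, Srsf5-212 keeps 1 long intron, and Srsf2-204 shares the coding stop but has 2 introns after it.

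Most splicing regulators were expressed. Of the 58 members, 51 (87.9%) had at least 1 TPM in both replicates, where TPM is the length-corrected share of a library's transcripts, scaled to a fixed total, and 61.5% of all protein-coding genes did. At least 10 TPM in both was reached by 46 members and at least 100 TPM by 26, levels at which the rate over all protein-coding genes was not computed. The median level was 75.8 ± 2.76 TPM over the members and 4.87 ± 0.219 TPM over all protein-coding genes. Among detected genes the medians were 109 ± 3.36 TPM for members and 19.0 ± 0.159 TPM for all protein-coding genes. Summed, the members held 1.04 ± 0.0552% of library TPM.

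**Figure D2:**
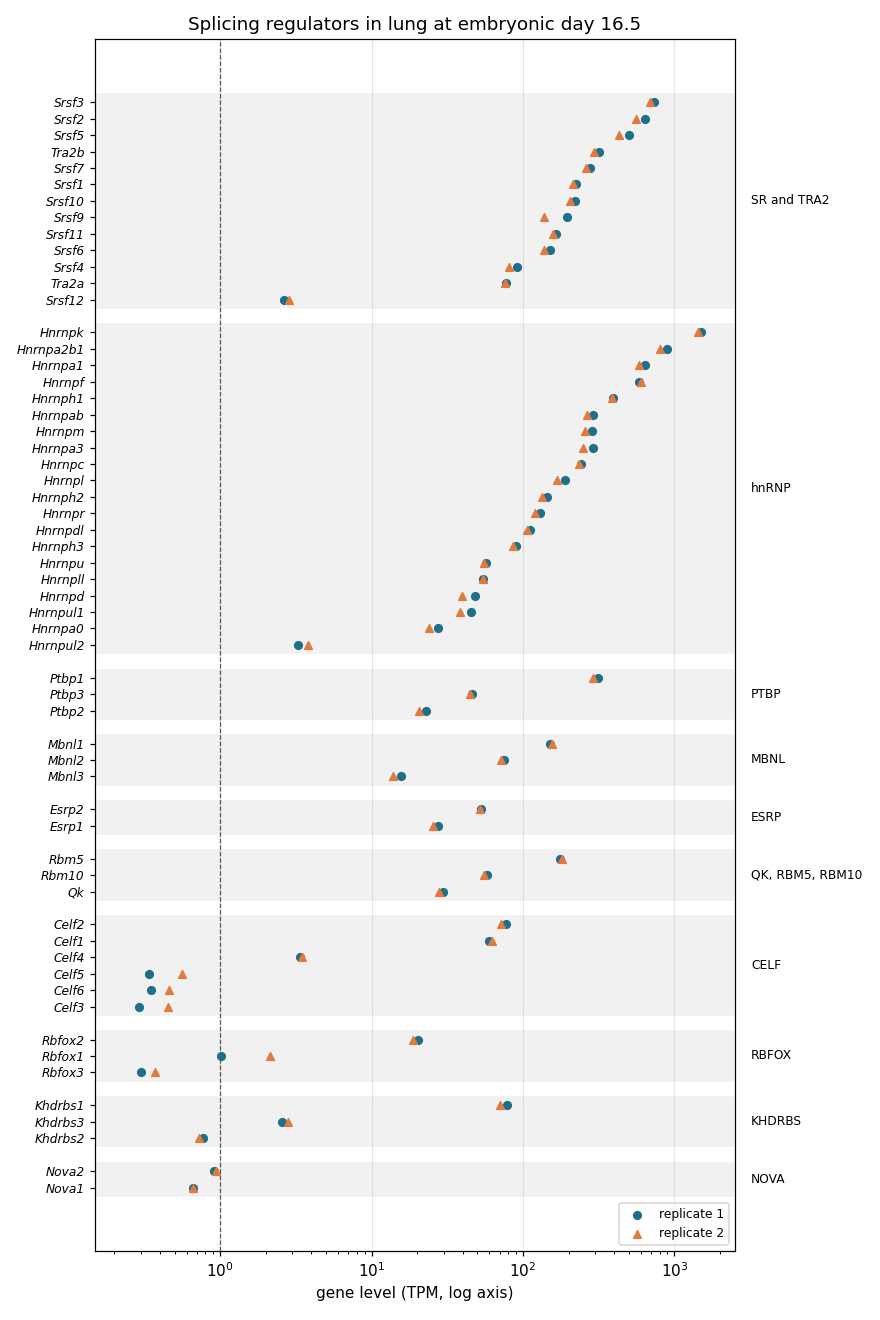
Level of each of the 58 splicing regulators in TPM (log axis) in replicate 1 (circles) and replicate 2 (triangles), grouped by family; the dashed line marks 1 TPM. All 33 SR, TRA2 and hnRNP genes lie to the right of the line in both replicates, and the 7 genes left of it belong to the CELF, RBFOX, KHDRBS and NOVA families.

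The SR proteins and the related TRA2 proteins, all 13 detected, had a median level of 222 TPM (replicate 1) and 204 TPM (replicate 2). Srsf3 (chr17:29032628-29043373, plus strand), the smallest SR protein and a regulator of both splicing and mRNA export, was the most abundant, at 734 and 685 TPM in replicates 1 and 2. Srsf2, an SR protein that stays in the nucleus, had 641 and 555 TPM, and Srsf5 had 501 and 428 TPM. The order of these top 3 was the same in both pools and their values did not overlap. Tra2b, a splicing activator that binds purine-rich exonic enhancers, had 316 and 293 TPM, and its paralogue Tra2a had 77.5 and 75.6 TPM. The log2 ratio of Tra2b to Tra2a was 1.98 ± 0.05. Srsf12 was the lowest of the family, at 2.64 and 2.86 TPM.

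Among the 20 hnRNP genes, all detected, the median level was 167 TPM (replicate 1) and 150 TPM (replicate 2). Hnrnpk, whose KH domains bind C-rich RNA, led all members with 1496 and 1438 TPM and ranked 41 among protein-coding genes by mean level. Hnrnpa2b1 had 898 and 800 TPM, against 637 and 583 TPM for Hnrnpa1; both encode abundant nuclear proteins that antagonise SR proteins at exons. Their log2 ratio, Hnrnpa2b1 over Hnrnpa1, was 0.48 ± 0.03. Hnrnpd, which encodes the AU-rich element binding protein AUF1, had 48.4 and 39.5 TPM, below Hnrnpdl at 111 and 106 TPM (log2 ratio -1.30 ± 0.16). Hnrnpul2 was lowest, at 3.28 and 3.80 TPM. Hnrnpa1 and several other hnRNP and SR genes have processed pseudogenes, and the deposited counts divide reads that match more than 1 feature, so levels of such genes carry an uncertainty that the replicates do not show.

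Within the smaller families 1 paralogue usually stood well above the others. Ptbp1, the PTB protein of most non-neuronal cells, had 312 and 288 TPM, against 23.0 and 20.7 TPM for Ptbp2, the neuronal form, and 45.9 and 44.6 TPM for Ptbp3. The log2 ratio was 3.72 ± 0.02 for Ptbp1 over Ptbp2 and 2.70 ± 0.05 for Ptbp1 over Ptbp3. Mbnl1 had 150 and 156 TPM, Mbnl2 had 75.2 and 71.7 TPM, and Mbnl3 had 15.5 and 13.8 TPM. Mbnl1 was thus above Mbnl2 by 1.05 ± 0.09 and above Mbnl3 by 3.29 ± 0.15 on the log2 scale, and the 3 genes did not overlap in level. Khdrbs1, which encodes the signalling-linked RNA-binding protein SAM68, had 78.0 and 70.5 TPM, against 2.55 and 2.81 TPM for Khdrbs3 and 0.77 and 0.72 TPM for Khdrbs2. Rbm5, a tumour suppressor that acts on apoptosis gene splicing, had 176 and 182 TPM, against 57.4 and 55.2 TPM for Rbm10 (log2 ratio 1.65 ± 0.07). From coding transcripts alone the gap was much smaller, with 54.0 and 55.2 TPM for Rbm5 and 46.4 and 45.3 TPM for Rbm10. Qk, the Quaking gene, had 29.8 and 27.8 TPM.

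The epithelial regulators were both present. Esrp1 had 27.3 and 25.6 TPM and Esrp2 had 52.6 and 52.4 TPM, a log2 ratio of Esrp1 to Esrp2 of -0.96 ± 0.06. All 5 of the lung epithelial markers examined were detected. Their sums of 11713 and 15022 TPM in replicates 1 and 2 were nearly all the surfactant gene Sftpc, at 10883 and 14172 TPM, while Epcam had 250 and 249 TPM, Cdh1 had 136 and 131 TPM and Nkx2-1 had 77.0 and 62.6 TPM. Also detected were all 5 mesenchymal markers (2264 and 1997 TPM) and all 4 endothelial markers (568 and 551 TPM). In whole tissue, fewer cells of a type and less RNA per cell cannot be told apart, so a level of Esrp1 or Esrp2 is an average over epithelial and other cells.

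The 7 members under 1 TPM, Khdrbs2 among them, are best known from nervous tissue. Nova1 had 0.66 TPM in both replicates and Nova2 had 0.91 and 0.94 TPM. Rbfox3, which encodes the neuronal antigen NeuN, had 0.30 and 0.37 TPM, Celf3 had 0.29 and 0.45 TPM, Celf5 had 0.34 and 0.56 TPM, and Celf6 had 0.35 and 0.46 TPM. Celf4, of the same family, had 3.37 and 3.49 TPM. Of 6 neuronal markers, 4 were detected, with summed levels of 21.8 and 29.1 TPM in the replicates, and none was at 0. The broadly expressed members of these families were higher. Celf1 had 59.7 and 62.7 TPM and Celf2 had 76.8 and 72.1 TPM, with a log2 ratio of -0.28 ± 0.11 for Celf1 over Celf2. That ratio was 0.29 from expected counts, which are not divided by length, so the order of Celf1 and Celf2 turned on that choice. Rbfox2 had 20.2 and 18.9 TPM, against 1.02 and 2.14 TPM for Rbfox1, a gene of neurons and muscle. The 7 skeletal muscle markers summed to 156 and 442 TPM in replicates 1 and 2, and the 5 cardiac markers to 883 and 672 TPM; their part in the Rbfox1 difference was not tested.

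The noncoding RNA of the members was measured next. An NMD or retained intron transcript was listed in the tables for 29 of the 58 members, 22 with an NMD and 28 with a retained intron transcript. Among protein-coding genes at a mean of 1 TPM or more, 44.7% had one, against 52.9% of the members at that level. For the 27 such members, the share of gene TPM in these classes had a median of 19.8 ± 0.852%, against 10.4 ± 0.619% over the 6017 protein-coding genes compared. The share was 20% or more in both replicates for 13 of the 27 members (48.1%), against 30.1% of protein-coding genes. The members also have more such transcripts annotated, a median of 4 against 2. Among genes with 3 or more, the share reached 20% in 11 of 22 members (50%) and in 48.0% of 2594 protein-coding genes, and the medians were 21.1 ± 0.754% and 21.3 ± 1.16%. Among genes with that many annotated noncoding transcripts, the members' share and the background were thus close.

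**Figure D3:**
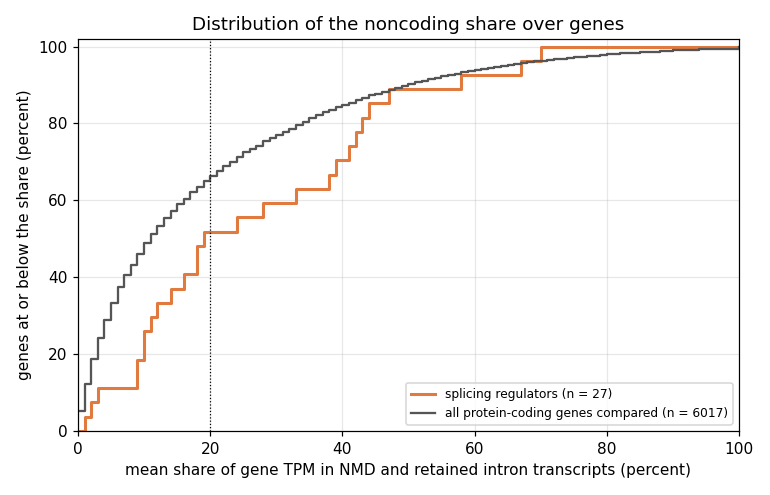
Percent of genes (vertical axis) at or below each mean share of gene TPM in NMD and retained intron transcripts (horizontal axis, percent) for the 27 members compared (orange) and all 6017 protein-coding genes compared (grey); the dotted line marks 20%. The orange curve lies below the grey one at 20%, and the medians are 19.8% for members and 10.4% for all genes.

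The classes were not equally represented. Of the members' summed TPM, 15.3 ± 0.538% was in retained intron and 5.41 ± 0.0481% in NMD transcripts, against 6.57 ± 0.432% and 2.18 ± 0.00975% over all protein-coding genes. Such sums are weighted towards abundant genes. The retained intron share was 39.2 ± 1.35% in Hnrnpk, 54.4 ± 1.40% in Srsf3 and 42.2 ± 2.30% in Srsf5, while the abundant Hnrnpa2b1 and Hnrnpa1 have no such transcript listed. The retained intron share exceeded the NMD share in 19 of the 27 members in both replicates, and the NMD share was the larger in 8. Over all protein-coding genes the matching rate was not computed, and the median shares were 6.63 ± 0.434% in retained intron and 0% in NMD transcripts. Among genes with an NMD transcript, the median NMD share was 8.99 ± 1.58% in members and 3.40 ± 0.131% in all protein-coding genes. Among genes with a retained intron transcript, that class had a median of 10.0 ± 0.709% in members and 8.53 ± 0.453% in all. The SR and TRA2 genes had a median noncoding share of 39.2 ± 0.202%, with 6 of 8 members at 20% or more. The hnRNP genes had a median of 17.6 ± 0.761%, with 4 of 10, against 30.1% of protein-coding genes in both cases, so the hnRNP count lay close to the background. Neither count was matched for the number of such transcripts annotated, and in protein-coding genes with 3 or more of them the rate was 48.0%.

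**Figure D4:**
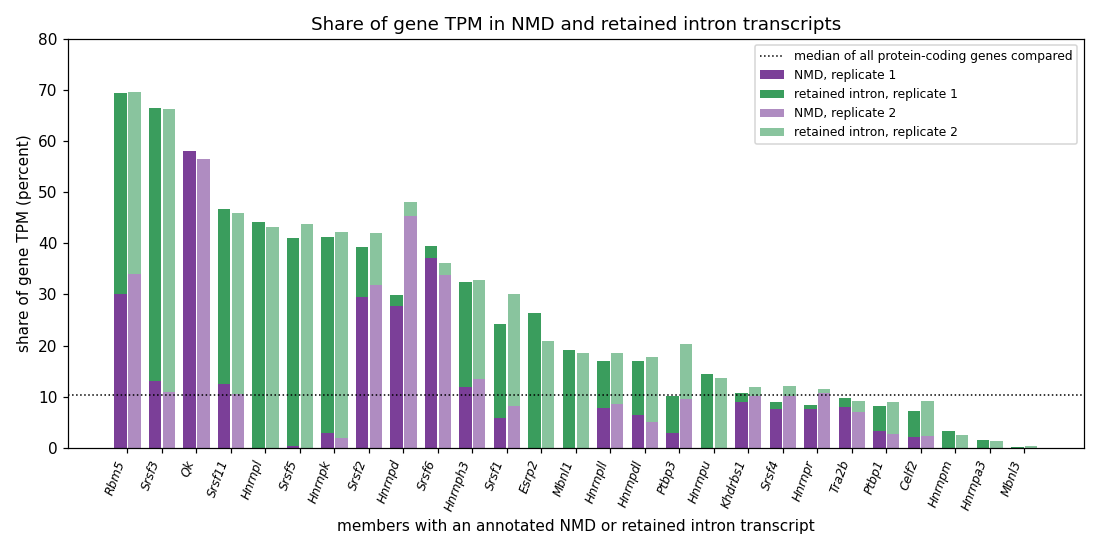
Share of gene TPM in NMD (purple) and retained intron (green) transcripts for the 27 members compared, as stacked bars for replicate 1 (dark, left of each pair) and replicate 2 (light, right); the dotted line is the median of all protein-coding genes compared. Shares run from 69.5% in Rbm5 to 0.177% in Mbnl3, and the bars of a pair differ most in Hnrnpd.

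At 50% or more in both replicates stood 3 members, Rbm5, Srsf3 and Qk, while 8.29% of protein-coding genes did. By mean share, 88.9% of the members compared and 90.4% of the protein-coding genes compared lay at or below 50%. The count of members was thus near the background. Rbm5 (chr9:107740371-107770996, minus strand) had 69.3% and 69.7% of its TPM in these classes, divided between NMD and retained intron transcripts. Its leading transcript by TPM, the NMD-class Rbm5-211, had 45.8 and 52.0 TPM, against 30.2 and 29.1 TPM for Rbm5-214, the leading coding transcript. All bases of Rbm5-211 are shared with other Rbm5 transcripts, and by expected counts the retained intron transcript Rbm5-219 led in both replicates. Srsf3 had 66.5% and 66.3%, most of it in the retained intron transcript Srsf3-205 at 349 and 337 TPM, against 246 and 231 TPM for its coding transcript Srsf3-202. The authors' credibility bounds on Srsf3-205, which express the uncertainty of the estimate within a library, were 328 to 354 TPM for replicate 1 and 313 to 343 TPM for replicate 2. Srsf3-205 is 910 nt long in the tables and 2110 nt in M21. Srsf3-201, the transcript with the poison exon printed above, added 96.4 and 74.6 TPM. Qk had 58.0% and 56.5%, all of it in 1 NMD transcript, Qk-202, at 17.3 and 15.7 TPM, against 12.5 and 12.1 TPM for the coding Qk-201. Qk-202 is 4658 nt long in the tables and 5832 nt in M21, and as given above its frame is close in length to that of Qk-201. The shares of Srsf3 and Qk therefore rest on models whose length changed, and neither has a share once such transcripts are left out, an alternative added after the data were seen.

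A noncoding transcript was the most abundant one in both replicates for 4 members (14.8% of 27), against 7.81% of protein-coding genes. Besides Rbm5, Srsf3 and Qk, the gene was Srsf5, an SR protein with a noncoding share of 41.0% and 43.8%. Its leading transcript Srsf5-212, which keeps the intron printed above, had 200 and 185 TPM, against 117 and 101 TPM for the coding Srsf5-201. In Hnrnpl, a regulator that binds CA repeats, the retained intron transcript Hnrnpl-210 led in replicate 1 with 54.5 TPM but not in replicate 2, where it had 40.4 TPM and the coding Hnrnpl-202 had 59.5 TPM. In Hnrnpd the NMD transcript Hnrnpd-208 led in replicate 2 alone, with 11.2 TPM there and 12.7 TPM in replicate 1.

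The remaining SR genes with high shares differed in class. Srsf6 had 39.5% and 36.2%, nearly all of it in the poison exon transcript Srsf6-201 at 56.2 and 46.4 TPM, against 91.2 and 87.3 TPM for Srsf6-203, the coding transcript. Srsf2 had 39.2% and 42.0%, most of it in Srsf2-204 at 186 and 175 TPM, against 389 and 322 TPM for the coding Srsf2-201. Srsf2-204 is a short model of 620 nt, against 1899 nt for Srsf2-201, and all its bases are shared with other Srsf2 transcripts. Srsf11 had 46.7% and 45.9%, with the retained intron class above the NMD class. Srsf1, the founding SR protein, had 24.2% and 30.2% by TPM and a mean of 7.09 ± 1.26% by expected counts. Tra2b stood lower, at 9.75% and 9.08%: its poison exon transcript Tra2b-206 had 25.3 and 20.3 TPM, against 135 and 127 TPM for the leading coding transcript Tra2b-204. Without transcripts of changed length the mean share was 2.11 ± 0.304% in Tra2b and 73.8 ± 4.23% in Srsf11. That setting leaves out Tra2b-206 and also Srsf11-202, the leading coding transcript of Srsf11, with 2614 nt in M4 and 2654 nt in M21. The Srsf11 value is thus not a share of the whole gene.

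Counting coding transcripts alone changed the order of the SR genes. By coding transcripts Srsf2 came first at 356 ± 47.5 TPM, then Srsf7 at 270 ± 12.5 TPM, Tra2b at 252 ± 11.7 TPM, Srsf3 at 238 ± 10.3 TPM and Srsf5 at 223 ± 37.4 TPM. Srsf3 thus moved from rank 1 by all transcripts to rank 4, although its coding values overlapped those of Tra2b and of Srsf5. The log2 ratio of Srsf3 to its close paralogue Srsf7 was 1.39 ± 0.00 from all transcripts and -0.18 ± 0.00 from coding transcripts. Srsf7 has a single transcript in the tables and 4 NMD or retained intron transcripts in M21, so any such RNA of Srsf7 had no model of its own. Of the 29 members without an NMD or retained intron transcript in the tables, 15 have one in M21, Tra2a, Hnrnpa1 and Hnrnpa2b1 among them. Their noncoding share could not be measured here.

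**Figure D5:**
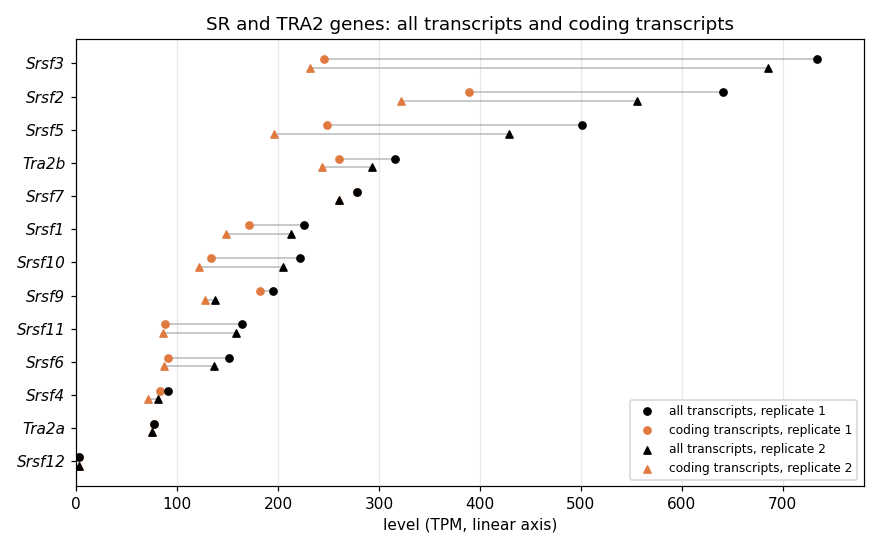
Level in TPM (linear axis) of each SR and TRA2 gene from all its transcripts (black) and from its coding transcripts alone (orange), in replicate 1 (circles) and replicate 2 (triangles), with a line joining the values of a replicate. The gap is widest in Srsf3, with 246 TPM from coding transcripts against 734 TPM from all in replicate 1, and Srsf7 and Tra2a show none because only coding transcripts are listed for them.

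Among the other families, Hnrnpk had 41.2% and 42.2% of its TPM in noncoding classes, led by Hnrnpk-217 at 404 and 382 TPM. Its coding transcripts alone gave 856 ± 34.5 TPM, against 849 ± 69.4 TPM for Hnrnpa2b1, a difference within the spread. These are unlike measures: Hnrnpa2b1 has no NMD or retained intron transcript in the tables but 7 in M21. The Hnrnpa2b1 value is thus its whole gene level. Hnrnpl had 44.2% and 43.2%, and Hnrnph3 had 32.4% and 32.9%. Esrp2 had 26.4% and 20.8%, spread over 6 retained intron transcripts, but its mean share was 5.24 ± 0.808% by expected counts and 19.6 ± 2.68% without transcripts under 500 nt. No NMD or retained intron transcript is listed for Esrp1. Mbnl1 had 19.2% and 18.5%, mostly in the retained intron transcript Mbnl1-225 at 21.5 and 22.8 TPM. In all, 3 genes with annotated noncoding transcripts stayed under 5% in both replicates: Hnrnpm at 3.26% and 2.46%, Hnrnpa3 at 1.44% and 1.33%, and Mbnl3 at 0.0644% and 0.289%. By mean share, 11.1% of the members compared and 33.4% of the protein-coding genes compared lay at or below 5%. A further class, processed transcripts without an open reading frame, is not part of these shares; it held 56.5 ± 1.33% of Hnrnph1 and 40.2 ± 0.524% of Srsf10, genes picked out after their values were seen. Counted in, this class gave mean shares of 26.7% in Mbnl1 and 17.1% in Tra2b.

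The size of a share depended on how RNA was counted. Median model length was 846 nt for the members' retained intron transcripts, 1110.5 nt for NMD and 2351.5 nt for coding transcripts, and TPM divides by length. From expected counts the median share was 9.35 ± 0.0903% over the members and 5.55 ± 0.357% over all protein-coding genes. The Hnrnpk share was 17.9 ± 0.0678% by counts, against 41.7 ± 0.700% by TPM. The Srsf2 share was 23.8 ± 1.30%, against 40.6 ± 1.95%, and the Srsf3 share was 50.4 ± 0.460%, against 66.4 ± 0.185%. The Srsf5 share was larger by counts, 60.0 ± 2.48% against 42.4 ± 1.99% by TPM. Its intron-retaining Srsf5-212 is a model of 2720 nt, against 1527 nt for the coding Srsf5-201. Rbm5 likewise had 70.9 ± 0.878% against 69.5 ± 0.251%. By counts 10 of the 27 members reached 20%, against 13 by TPM; Hnrnpk, Srsf1 and Esrp2 no longer did. Noncoding transcripts led in 2 members by counts, Srsf5 and Rbm5. The matching rates over all protein-coding genes were not computed from counts, so these numbers of members have no background to be read against.

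On the log2(TPM + 1) scale no member was 2-fold apart between the replicates, and 1.19% of protein-coding genes were. Rbfox1, at 1.02 and 2.14 TPM, was just over 2-fold apart in TPM itself and stayed under that limit through the pseudocount of 1 TPM. The differences, replicate 2 minus replicate 1, ran from -0.51 in Srsf9, with 195 and 137 TPM in replicates 1 and 2, to 0.64 in Rbfox1. The level was lower in replicate 2 for 42 of the 51 members at a mean of 1 TPM or more (82.4%), against 51.6% of protein-coding genes, but the median difference was small, -0.09 over the members and -0.01 over all protein-coding genes. Replicate 2 also had more liver marker RNA (399 TPM summed, against 47.1 TPM in replicate 1) and more skeletal muscle marker RNA, and fewer counts; their part in the members' difference was not tested.

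Noncoding shares were also close between the pools, with a median difference of 0.990 points over the members and 2.04 points over all protein-coding genes. More than 10 points separated the replicates in 2 members (7.41% of 27), against 9.96% of protein-coding genes. In Hnrnpd (chr5:99955935-99978938, minus strand) the share was 29.8% in replicate 1 and 48.2% in replicate 2. A further 14.5% and 10.6% of Hnrnpd TPM lay in transcripts without a match in M21, which have no class here. The coding transcript Hnrnpd-203 had 20.6 and 9.76 TPM in replicates 1 and 2, while the NMD transcript Hnrnpd-204 had 0.17 and 6.09 TPM. All bases of Hnrnpd-203 and of Hnrnpd-204 are shared with other Hnrnpd transcripts. The credibility bounds of Hnrnpd-204 were 0.000630 to 4.52 TPM for replicate 1 and 2.41 to 9.49 TPM for replicate 2, which overlap. In Ptbp3 the share was 10.2% in replicate 1 and 20.4% in replicate 2.

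Nearly all genes of 4 lists that act with these regulators were detected, against 61.5% of protein-coding genes. The rate of a noncoding share of 20% in both replicates was 30.1% over protein-coding genes. It was 48.0% in those with 3 or more such transcripts annotated. The counts of the lists were not matched for that number, so a count above 30.1% cannot be read as a trait of a list. All 33 spliceosome core genes were detected, with a median of 101 ± 4.74 TPM, from Snrpe at 543 and 507 TPM to Zrsr1 at 1.86 and 1.61 TPM. Of 20 with a share, 6 reached 20%, close to the background, and Snrpb2 had the largest at 72.5% and 73.3%. All 10 SR protein kinases and related genes were detected, at a median of 36.6 ± 0.940 TPM, with Srpk3 lowest at 4.20 and 6.25 TPM. Clk1, a kinase that phosphorylates SR proteins, was the highest of them with 173 and 191 TPM, and 65.2% and 69.0% of it lay in noncoding classes, the largest share in its list. In that list 6 of 7 genes reached 20%. All 16 NMD factors were detected at a median of 26.0 ± 0.612 TPM, from Eif4a3, a component of the exon junction complex, at 286 and 278 TPM to Upf1, the central helicase of the pathway, lowest by mean at 8.60 and 7.13 TPM. Upf2, at 8.50 and 7.70 TPM, overlapped it, and 2 of 6 reached 20%, Smg5 with the largest share at 42.9% and 39.9%. Among 50 further RNA-binding proteins, 49 were detected at a median of 58.4 ± 2.44 TPM, from Ewsr1 at 602 and 593 TPM to Srrm4 at 0.32 and 0.10 TPM. There 17 of 31 reached 20%, with Luc7l2 at 74.0% and 74.6%. No gene of these 4 lists was 2-fold apart between the replicates.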

How the data were processed

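Gene and transcript tables of 2 libraries were used. Per the labels, 10 ng of RNA longer than 200 nt, with spike-ins, entered each library. The expected counts the authors deposited are estimated reads per feature, with reads that match several features divided among them. The deposited TPM values divide by effective length, 99 nt below the model length, and are scaled to a fixed library total that includes spike-ins. The score columns deposited beside TPM give the lower and upper limits of each estimate's credibility interval. Build mm10 and annotation M4 are given in the notes deposited with the files; the aligner, quantifier and strand setting are not given in the sources used here.

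Symbols, transcript classes and coordinates came from GENCODE M21 on the same build, matched by identifier, for 42462 of 43346 gene rows and 101510 of 103639 transcript rows. Of 422 member transcripts, 390 had the same length in both releases. A noncoding share is the percent of a gene's transcript TPM in NMD and retained intron transcripts, in genes averaging 1 TPM or more that have such a transcript in the tables. Differences between replicates used a pseudocount of 1 TPM. A ratio held where its sign was the same in each library and its mean was over 2 SD. Python 3.11.15, NumPy 2.4.6, pandas 2.3.3 and matplotlib 3.10.9 were used, and the steps were tested on simulated data.

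Named are the highest and lowest member of each family, every member of families with 4 genes or fewer, the 12 highest and 3 lowest shares, members led by a noncoding transcript or far apart between replicates, the 14 ratio pairs, and the extremes of each further list. Members and lists were chosen with earlier results of these data known. Alternatives added after seeing the data were genes with 3 or more noncoding transcripts, and leaving out transcripts whose length changed between releases.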

Additional observations from a re-analysis of the deposited data

How the results depend on the processing

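With 2 libraries of 1 group, the SD covers the spread between these pools alone. Without either replicate in turn, 51 members were detected, the median level was 73.9 to 77.8 TPM, the share of library TPM 1.00 to 1.08%, the median noncoding share 19.2 to 20.4% and the number at 20% or more 13 to 14. Noncoding transcripts led in 5 members in each single library, and all 14 ratios kept their sign. The library share was 1.10% without spike-ins and 1.49% from expected counts, and the median level 109 TPM over detected members only. The median noncoding share was 9.35% from expected counts, 26.7% with processed transcripts, 18.6% with no level filter, 21.1% in genes with 3 or more such transcripts and 17.8% without transcripts of changed length. In that last setting Srsf3 and Qk had no share. Tra2b had 2.11% without its poison exon transcript, and Srsf11 had 73.8% without its leading coding transcript. The number of members past the threshold was 3 at 50%. From expected counts 2 members were led by a noncoding transcript, and 1 was 10 points apart, as it was from posterior mean TPM. In all, 3 ratios turned sign: Celf1 over Celf2 to 0.29 from expected counts, and Nova1 over Nova2 to 0.068 and Srsf3 over Srsf7 to -0.18 from coding transcripts alone; with coding transcripts 13 of the 14 ratios held. From expected counts the share moved by more than 1 SD in 23 of the 27 members, lower in 21 and higher in 2. The other alternatives that apply to them kept every count within 1.5 times its value and the median share within 1 SD. Short or fragmentary models and reads shared between transcripts limit single transcript values, beyond what the depth allows. No paired analysis was possible because the libraries form a single group.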
